A study of Homo sapiens with 12 samples.

Results

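Versican (VCAN) and 9 further genes of the proteoglycan system are described here, 10 of the 20043 genes with an annotated probe on the array: the small leucine-rich proteoglycans biglycan (BGN) and decorin (DCN), the syndecans SDC1, SDC2 and SDC4, the glypicans GPC1 and GPC4, the chondroitin sulfate proteoglycan CSPG4 and the carbohydrate sulfotransferase CHST2. The genes were taken by name with all 15 of their probes, and they were named with the results of these arrays known. Their levels and changes are therefore given as a description. Where the text says that a member passed the threshold of the fit over all genes, that too is a description and not a test of the member. All 10 had a probe that passed the filter on dim probes, detection on at least 3 of the 12 arrays.

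The study profiled total RNA from Tet21N, a neuroblastoma line of human origin in which doxycycline turns off an N-Myc transgene, on Illumina bead arrays. Its title places it in the question of how far cells with deregulated Myc need MondoA, a nutrient-sensing transcription factor encoded by MLXIP. The 4 groups of 3 arrays were Tet21N cells given siMondoA and 1 microgram/ml doxycycline (Myc off), cells given siControl and doxycycline (Myc off), cells given siMondoA without doxycycline (Myc on), and cells given siControl without doxycycline (Myc on). The doxycycline period was 3 days. All groups are the same single line, all were transfected with an siRNA, and the transgene is not the cells' own MYCN gene. Drug and transgene cannot be told apart, because each Myc-off array is also a doxycycline-treated one. Likewise, loss of MondoA cannot be told apart from any other effect of siMondoA. Words such as raised or lowered below give the direction of a difference between groups. Nothing in the labels says that the 3 arrays of a group came from separate cultures, so errors and p-values measure the spread between these arrays alone, and that spread may be technical.

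Proteoglycans are core proteins that carry long sulfated sugar chains. Versican, a large chondroitin sulfate proteoglycan, binds hyaluronan in the matrix around cells, while biglycan and decorin bind collagen and growth factors such as TGF-beta. Syndecans span the membrane and glypicans are held to it by a lipid anchor. Both carry mainly heparan sulfate chains and present growth factors to their receptors. The chains are built on a linker sugar sequence by enzymes of the Golgi, sulfated with a donor (PAPS) made in the cytosol, and degraded by extracellular proteases and lysosomal enzymes.

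Myc and MondoA both bind DNA with a partner protein at E-boxes, and the promoters of 3 members with wide differences between the groups are therefore shown. They are the 250 bases before the annotated start in RefSeq (GRCh38.p14), 5′ to 3′ on the gene's strand, with each GC box (GGGCGG, or CCGCCC on the other strand) in capitals. VCAN lies at chr5:83471494-83471743 (plus strand), BGN at chrX:153494730-153494979 (plus strand) and CHST2 at chr3:143119521-143119770 (plus strand).
VCAN: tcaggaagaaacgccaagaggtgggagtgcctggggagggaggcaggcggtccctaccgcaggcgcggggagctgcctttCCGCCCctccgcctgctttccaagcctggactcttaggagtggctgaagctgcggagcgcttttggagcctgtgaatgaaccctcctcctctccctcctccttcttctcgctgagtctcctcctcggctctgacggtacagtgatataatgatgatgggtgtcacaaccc
BGN: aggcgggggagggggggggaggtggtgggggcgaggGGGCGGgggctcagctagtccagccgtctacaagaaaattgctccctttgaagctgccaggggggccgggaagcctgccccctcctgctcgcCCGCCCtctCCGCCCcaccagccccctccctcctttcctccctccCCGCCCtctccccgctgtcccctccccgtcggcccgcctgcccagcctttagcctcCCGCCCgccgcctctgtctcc
CHST2: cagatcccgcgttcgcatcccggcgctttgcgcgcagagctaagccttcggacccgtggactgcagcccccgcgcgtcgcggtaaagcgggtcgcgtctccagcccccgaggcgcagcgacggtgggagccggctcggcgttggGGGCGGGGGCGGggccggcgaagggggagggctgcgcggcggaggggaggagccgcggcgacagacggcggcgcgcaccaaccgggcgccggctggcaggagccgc
The E-box CACGTG, which reads the same on both strands, was in 0 of the 9 promoters that the table lists for 8 of the 10 members, and in 6.3447% of the 35116 promoters in the table. A GC box on either strand was in 9 of the 9 promoters and in 42.6387% of all. Adjacent GC boxes can overlap, and the 2 motifs share no bases. DCN and SDC2 had no entry in the table. These matches describe the letters of the windows only.

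Each array detected 18521 to 20726 probes (detection p below 0.05), 39.1% to 43.8% of the 47313 with values. With 3 arrays in a group, their number limits the precision. Arrays of a group correlated at 0.986 to 0.992 and arrays of different groups at 0.945 to 0.973 across the genes tested. MLXIP was detected on 1 array and both MYCN probes on 0, so neither checks the labels. TXNIP, a known target of MondoA, averaged 6.67 ± 0.10 with siMondoA and 11.09 ± 0.14 with siControl under doxycycline, and 7.96 ± 0.16 with siMondoA and 11.31 ± 0.05 with siControl without it (log2 level, SD, n = 3). Of the markers of mesenchymal neuroblastoma 6 of 7 were detected on all 12 arrays, and FN1 on 7. Of the 7 adrenergic markers with a probe, 2 (HAND2 and ISL1) were detected on all 12 arrays and 2 (TH and DBH) on 0. GATA3 was detected on 11, CHGA on 2 and PHOX2A on 1. Of the blood genes PTPRC and CD3E were detected on 0 arrays, HBB on 1 and CD14 on 9, and of the endothelial genes CDH5 and VWF on 0 and PECAM1 on 4. Of the epithelial genes KRT8 and KRT18 were detected on all 12 arrays, EPCAM on 5 and CDH1 on 0. The summed linear level of the 3 epithelial markers that passed the filter was 417 to 453 with siMondoA and 869 to 1140 with siControl under doxycycline. Without it the sum was 735 to 854 with siMondoA and 509 to 575 with siControl. The sum of the 7 mesenchymal markers was 19242 to 20357 with siMondoA and 19746 to 20676 with siControl under doxycycline, and 21627 to 23679 with siMondoA and 14962 to 16596 with siControl without it. The sum of the 3 adrenergic markers that passed was 1255 to 1437 with siMondoA and 1035 to 1073 with siControl under doxycycline, and 1092 to 1194 with siMondoA and 918 to 1024 with siControl without it. CD14, the 1 blood gene that passed, read 43.9 to 62.7 with siMondoA and 25.1 to 39.4 with siControl under doxycycline, and 45.9 to 72.5 with siMondoA and 32.1 to 45.2 with siControl without it. PECAM1 read 22.1 to 29.4 with siMondoA and 34.7 to 42.5 with siControl under doxycycline, and 29.4 to 34.7 with siMondoA and 30.4 to 45.7 with siControl without it. The part of these markers in the results below was not tested.

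**Figure D1:**
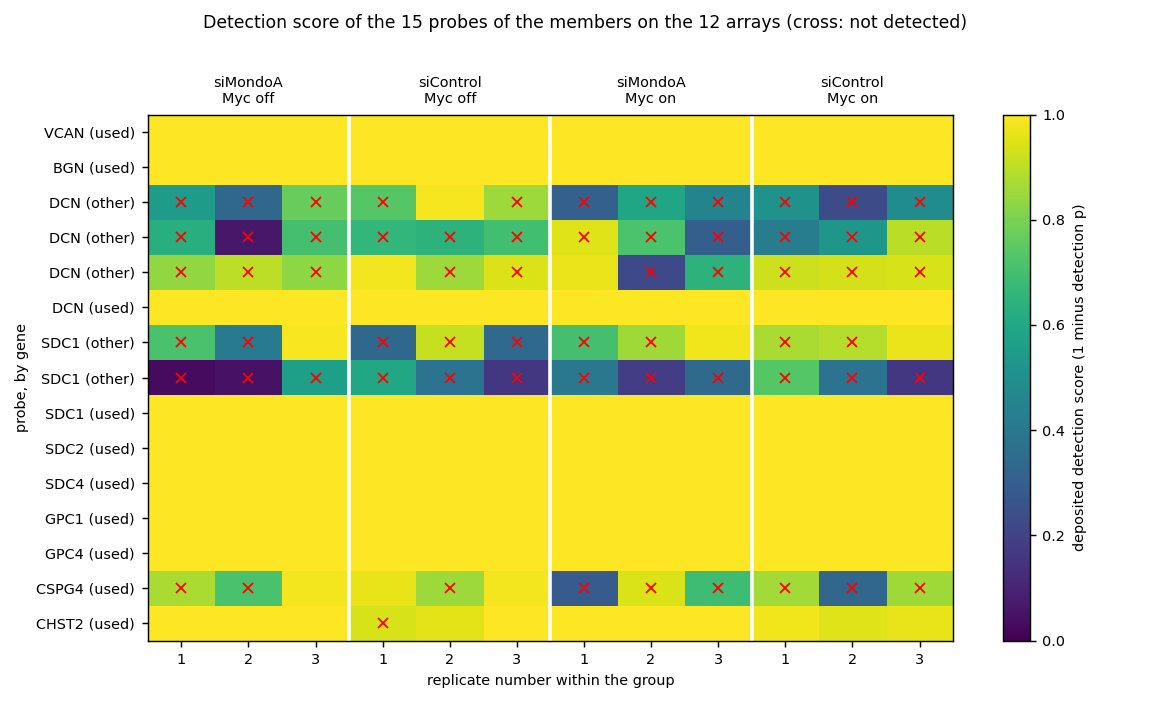
Deposited detection score (colour, 0 to 1) of the 15 probes of the 10 genes on the 12 arrays, grouped by siRNA and Myc state; a cross marks a probe not detected. The probes used for VCAN, BGN, DCN, SDC1, SDC2, SDC4, GPC1 and GPC4 were detected on all 12 arrays, CHST2 missed 1 array, and CSPG4 was detected on 3 arrays.

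The plot of detection scores shows which values stand on signal above background. Of the 4 DCN probes 1 was detected on all 12 arrays, and the others on 1, 0 and 2. SDC1 had 3 probes, of which 1 was detected on all 12 arrays and the others on 3 and 0. The remaining 8 members had 1 probe each. CHST2 was detected on 2 of 3 arrays with siControl and doxycycline and on all arrays of the other groups. CSPG4 passed the filter through doxycycline-treated arrays alone.

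Levels below are log2 intensities after background correction and quantile normalization between arrays, and changes are differences of group means on that scale. Levels of different probes are not comparable with each other. In arrays of bulk RNA, fewer cells that express a gene and less RNA per cell cannot be told apart.

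**Figure D2:**
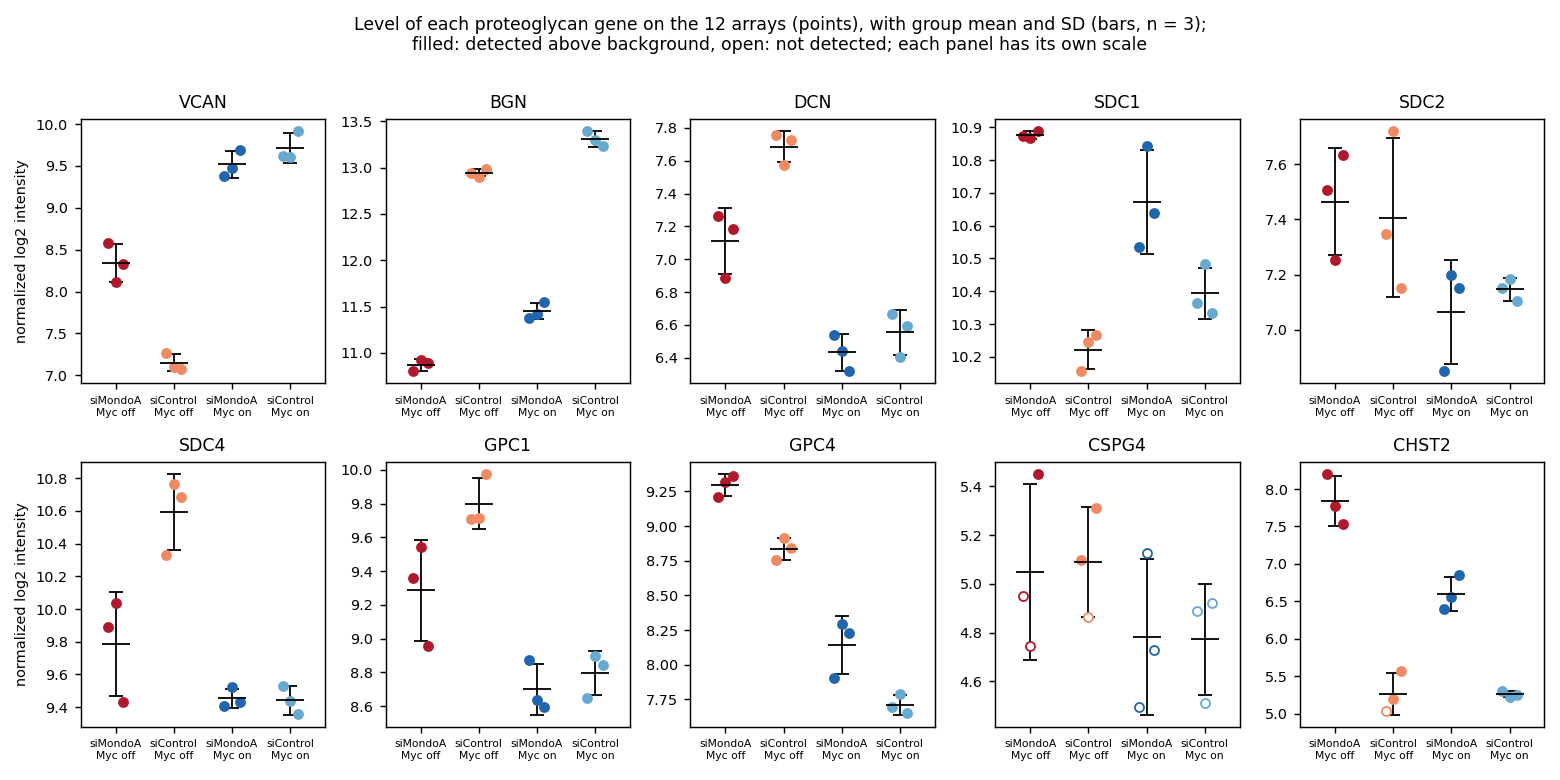
Normalized log2 intensity (y axis, own scale in each panel) of the probe used for each of the 10 genes on each array, by group; bars are group means with SD (n = 3), filled points arrays on which the probe was detected. VCAN was lowest with siControl under doxycycline, between 7.08 and 7.27, BGN was lowest with siMondoA under doxycycline, between 10.80 and 10.92, and CHST2 was highest there, between 7.54 and 8.20.

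VCAN, the hyaluronan-binding proteoglycan, was lower in both Myc-off groups than in both Myc-on groups, and with Myc off it was higher after MondoA knockdown. Its log2 level was 8.58, 8.12 and 8.33 in siMondoA cells and 7.27, 7.10 and 7.08 in siControl cells under doxycycline. Without doxycycline it was 9.38, 9.48 and 9.69 in siMondoA cells and 9.62, 9.60 and 9.92 in siControl cells. The 3 siMondoA arrays lay above the 3 siControl arrays with Myc off, whereas with Myc on the siRNA groups overlapped. The knockdown change was 1.19 ± 0.14 with Myc off (SE), a 2.28-fold higher level, and -0.20 ± 0.14 with Myc on. The change with doxycycline was -2.56 ± 0.14 in siControl cells, a 5.91-fold lower level, and -1.18 ± 0.14 in siMondoA cells. The difference between the knockdown changes, Myc off minus Myc on, was 1.39 ± 0.20. Without background correction the knockdown changes were 0.79 with Myc off and -0.17 with Myc on, and their difference was 0.97. The doxycycline changes were then -1.93 in siControl cells and -0.96 in siMondoA cells.

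BGN, a collagen-binding matrix proteoglycan, was far lower after MondoA knockdown in both Myc states. Under doxycycline its log2 level was 10.80, 10.92 and 10.89 in siMondoA cells, against 12.94, 12.90 and 12.98 in siControl cells. The levels without doxycycline were 11.38, 11.42 and 11.55 in siMondoA cells and 13.40, 13.30 and 13.23 in siControl cells. The 4 groups did not overlap, and the order from high to low was siControl Myc on, siControl Myc off, siMondoA Myc on and siMondoA Myc off. The knockdown change was -2.08 ± 0.10 with Myc off and -1.86 ± 0.10 with Myc on, which are 4.21-fold and 3.62-fold lower levels. Doxycycline went with smaller changes of -0.37 ± 0.10 in siControl cells and -0.58 ± 0.10 in siMondoA cells. The knockdown changes with Myc off and Myc on differed by -0.22 ± 0.14.

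DCN, the second small leucine-rich proteoglycan and a known binder of collagen fibrils, was higher with Myc off, unlike BGN. On its 1 detected probe the log2 level was 7.26, 6.88 and 7.18 in siMondoA cells and 7.75, 7.58 and 7.73 in siControl cells under doxycycline. Without the drug it was 6.54, 6.44 and 6.32 in siMondoA cells and 6.67, 6.40 and 6.59 in siControl cells. Both doxycycline groups lay above both groups without it, and with Myc on the siRNA groups overlapped. The change with doxycycline was 1.13 ± 0.13 in siControl cells and 0.68 ± 0.13 in siMondoA cells. MondoA knockdown went with changes of -0.57 ± 0.13 with Myc off and -0.12 ± 0.13 with Myc on. Without background correction the doxycycline changes were 0.64 in siControl cells and 0.35 in siMondoA cells, and the knockdown change with Myc off was -0.35.

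Among the syndecans, SDC1 and SDC4 moved in opposite directions with the knockdown under doxycycline, and SDC2 overlapped between neighbouring groups throughout. SDC1, which binds matrix proteins and growth factors through heparan sulfate, had log2 levels of 10.87, 10.87 and 10.89 in siMondoA cells and 10.16, 10.24 and 10.27 in siControl cells with Myc off. With Myc on it had 10.53, 10.84 and 10.64 in siMondoA cells and 10.36, 10.48 and 10.33 in siControl cells. The siMondoA arrays lay above the siControl arrays in both Myc states, by 0.65 ± 0.11 with Myc off and 0.28 ± 0.11 with Myc on. The doxycycline changes of SDC1 were -0.17 ± 0.11 with siControl and 0.20 ± 0.11 with siMondoA. A further SDC1 probe, detected on 3 arrays, gave knockdown changes of 0.32 with Myc off and -0.09 with Myc on. Under median scaling the change of SDC1 with Myc on was 0.58 and passed the threshold of the fit, which the 0.28 with quantile normalization did not.

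SDC4, a syndecan found at focal adhesions, stood at 9.89, 10.04 and 9.43 in siMondoA cells and at 10.33, 10.77 and 10.68 in siControl cells under doxycycline. Its levels without doxycycline were 9.41, 9.52 and 9.43 in siMondoA cells and 9.53, 9.44 and 9.36 in siControl cells. The siControl Myc-off arrays were the highest, the siMondoA Myc-off arrays lay below them, and the remaining neighbours in the order overlapped. Its doxycycline change was 1.15 ± 0.16 in siControl cells and 0.33 ± 0.16 in siMondoA cells, and its knockdown change was -0.81 ± 0.16 with Myc off and 0.01 ± 0.16 with Myc on. The difference between the knockdown changes was -0.82 ± 0.22, and -0.64 without replicate 3 of the siMondoA Myc-off group, whose level of 9.43 was the lowest of that group.

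SDC2, a syndecan of mesenchymal cells, read 7.51, 7.25 and 7.63 in siMondoA cells and 7.35, 7.72 and 7.15 in siControl cells with Myc off. With Myc on it read 6.85, 7.20 and 7.15 in siMondoA cells and 7.15, 7.19 and 7.10 in siControl cells. No group of SDC2 stood apart from its neighbour in the order of means. The siMondoA groups, which are not neighbours in that order, did not overlap between Myc states, with 7.25 as the lowest Myc-off and 7.20 as the highest Myc-on level. The knockdown changes were 0.06 ± 0.16 with Myc off and -0.08 ± 0.16 with Myc on, and the doxycycline changes 0.26 ± 0.16 with siControl and 0.40 ± 0.16 with siMondoA.

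Both glypicans, which hold heparan sulfate chains at the cell surface, were higher under doxycycline, and they differed in the direction of the knockdown change with Myc off. GPC1 had log2 levels of 9.36, 9.54 and 8.96 in siMondoA cells and 9.71, 9.71 and 9.97 in siControl cells with Myc off. Without doxycycline GPC1 had 8.87, 8.64 and 8.59 in siMondoA cells and 8.65, 8.90 and 8.85 in siControl cells. The doxycycline groups lay above the others, and the siRNA groups overlapped with Myc on. The GPC1 change with doxycycline was 1.00 ± 0.15 in siControl cells and 0.58 ± 0.15 in siMondoA cells. The knockdown change of GPC1 was -0.51 ± 0.15 with Myc off and -0.10 ± 0.15 with Myc on, and with Myc off it was -0.35 without replicate 3 of the siMondoA group and -0.43 without replicate 3 of the siControl group.

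GPC4 stood at 9.21, 9.32 and 9.36 in siMondoA cells and 8.76, 8.92 and 8.84 in siControl cells under doxycycline. It stood at 7.90, 8.30 and 8.23 in siMondoA cells and 7.69, 7.79 and 7.65 in siControl cells without it. The 4 groups did not overlap, with siMondoA above siControl in each Myc state and Myc off above Myc on for each siRNA. The knockdown changes were 0.46 ± 0.12 with Myc off and 0.43 ± 0.12 with Myc on, and the doxycycline changes 1.12 ± 0.12 with siControl and 1.15 ± 0.12 with siMondoA. The knockdown changes of GPC4 differed between Myc states by 0.03 ± 0.17, less than the SE of that difference.

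CSPG4 (also called NG2), a membrane-spanning chondroitin sulfate proteoglycan of pericytes and glial progenitors, was at the edge of detection. Its probe was detected on 1 of 3 siMondoA and 2 of 3 siControl arrays under doxycycline, and on 0 of 3 arrays in each group without it. The log2 readings were 4.95, 4.75 and 5.45 in siMondoA cells and 5.10, 4.86 and 5.31 in siControl cells under doxycycline. Without the drug the readings of 4.49 to 5.13 in siMondoA cells and 4.51 to 4.92 in siControl cells are not well above background, so no change of CSPG4 with doxycycline is given. The knockdown difference with Myc off was -0.04 ± 0.21, within the spread of either group.

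CHST2, which transfers sulfate to the 6 position of N-acetylglucosamine, was higher after MondoA knockdown in both Myc states. Its log2 level was 8.20, 7.77 and 7.54 in siMondoA cells and 5.03, 5.20 and 5.57 in siControl cells with Myc off. With Myc on it was 6.39, 6.56 and 6.85 in siMondoA cells and 5.31, 5.23 and 5.25 in siControl cells. All siMondoA arrays lay above all siControl arrays, the siMondoA groups did not overlap with each other, and the siControl groups did. The knockdown change was 2.57 ± 0.18 with Myc off and 1.34 ± 0.18 with Myc on, levels 5.95-fold and 2.53-fold higher with siMondoA. The doxycycline change was 1.24 ± 0.18 in siMondoA cells, against 0.005 ± 0.18 in siControl cells. The 2 knockdown changes differed by 1.23 ± 0.26. The siControl levels lie near background, and without background correction the knockdown changes were 1.22 with Myc off and 0.50 with Myc on, the doxycycline change in siMondoA cells 0.72 and the difference between the knockdown changes 0.72.

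**Figure D3:**
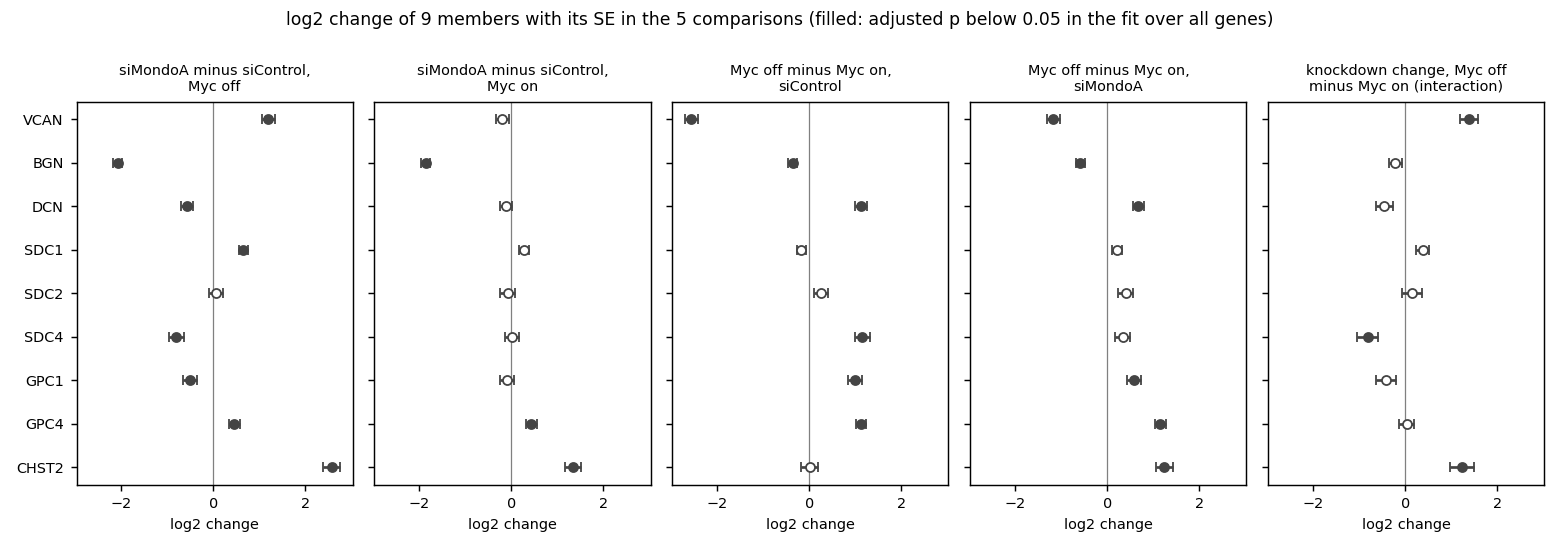
log2 change with its SE (x axis) of 9 members in the 5 comparisons; filled points passed an adjusted p of 0.05 in the fit over all genes, and CSPG4 is left out because it was not detected without doxycycline. VCAN and CHST2 stand to the right and SDC4 to the left in the panel for the difference between the knockdown changes, at 1.39, 1.23 and -0.82.

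Read against all 12178 genes tested, members passed the threshold of the fit (limma, adjusted p below 0.05) in numbers that their choice in part fixes, so nothing is read from these counts. MondoA knockdown with Myc off took 4 members past it as higher (VCAN, SDC1, GPC4 and CHST2) and 4 as lower (BGN, DCN, SDC4 and GPC1), where 21.8% of all genes were called higher and 22% lower. With Myc on, 2 members were called higher (GPC4 and CHST2) and 1 lower (BGN), beside 12.4% and 12.5% of all genes. Doxycycline took 4 members higher in siControl cells (DCN, SDC4, GPC1 and GPC4) and 2 lower (VCAN and BGN), beside 16.3% and 14.6%. In siMondoA cells 4 were higher (DCN, GPC1, GPC4 and CHST2) and 2 lower (VCAN and BGN), beside 15.1% and 14.9%. The knockdown change was more positive with Myc off for 2 members (VCAN and CHST2) and more negative for 1 (SDC4), beside 3.55% and 5.15% of all genes. Leaving out 1 array ended the doxycycline call of BGN in siControl cells (-0.32 without replicate 1 of the siControl Myc-on group), and that of GPC4 with knockdown under Myc on (0.35 to 0.42 without replicate 2 or 3 of the siMondoA or replicate 1 or 3 of the siControl Myc-on group). The knockdown call of GPC1 with Myc off ended without replicate 3 of either siRNA group. The SDC4 call for the difference between the knockdown changes ended without any 1 of 10 of the 12 arrays. The knockdown and doxycycline comparisons share arrays, so their values for a gene are not independent.

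Scaling the arrays to a common median instead of quantile normalization moved the median change of all genes to -0.06 and 0.19 for the knockdown with Myc off and on, to 0.11 and -0.13 for doxycycline with siControl and siMondoA, and to -0.27 for the difference between the knockdown changes. Of all genes called, the share called higher was then 37.2%, 79.1%, 74.4%, 23.8% and 5.92% in that order, against 49.9%, 49.7%, 52.8%, 50.3% and 40.8% under quantile normalization. Under median scaling the knockdown change of VCAN was 1.03 with Myc off and 0.07 with Myc on, and those of BGN were -1.97 and -1.71 and of CHST2 2.45 and 1.42. The differences between the knockdown changes were then 0.96 for VCAN, 1.03 for CHST2 and -1.11 for SDC4, and DCN and GPC1 joined the members called more negative with Myc off, at -0.75 and -0.73. GPC4 with knockdown under Myc off, at 0.37, and GPC1 with doxycycline in siMondoA cells, at 0.39, were not called under median scaling.

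The other genes of the pathway were taken from 10 lists that also hold the members. They name 129 further genes, of which 122 had a probe and 73 passed the filter. With MondoA knockdown under Myc off 9 of the 73 were called higher and 29 lower, and 35 did not pass the threshold. The median log2 change was -0.19 beside 0.03 over all genes. Of all genes 21.8% were called higher and 22% lower in that comparison. Median scaling gave 5 higher and 27 lower there. With Myc on 9 rose and 15 fell, beside 12.4% and 12.5% of all genes, with a median of -0.07 beside 0.03. Median scaling turned these counts to 13 higher and 6 lower. Doxycycline raised 40 and lowered 3 in siControl cells, with a median of 0.38 beside 0.01, and raised 23 and lowered 6 in siMondoA cells, with a median of 0.17 beside 0.02. Of all genes 16.3% were called higher and 14.6% lower in siControl cells, and 15.1% and 14.9% in siMondoA cells. Median scaling left 12 higher and 7 lower in siMondoA cells. The knockdown change was more positive with Myc off for 2 genes and more negative for 11, with a median of -0.24 beside -0.003, and under median scaling for 0 and 15. Of all genes 3.55% and 5.15% were called so. Counts of the single lists below stand beside the same shares of all genes. Some lie near them, such as 2 higher and 3 lower of 10 linker genes for knockdown with Myc off.

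**Figure D4:**
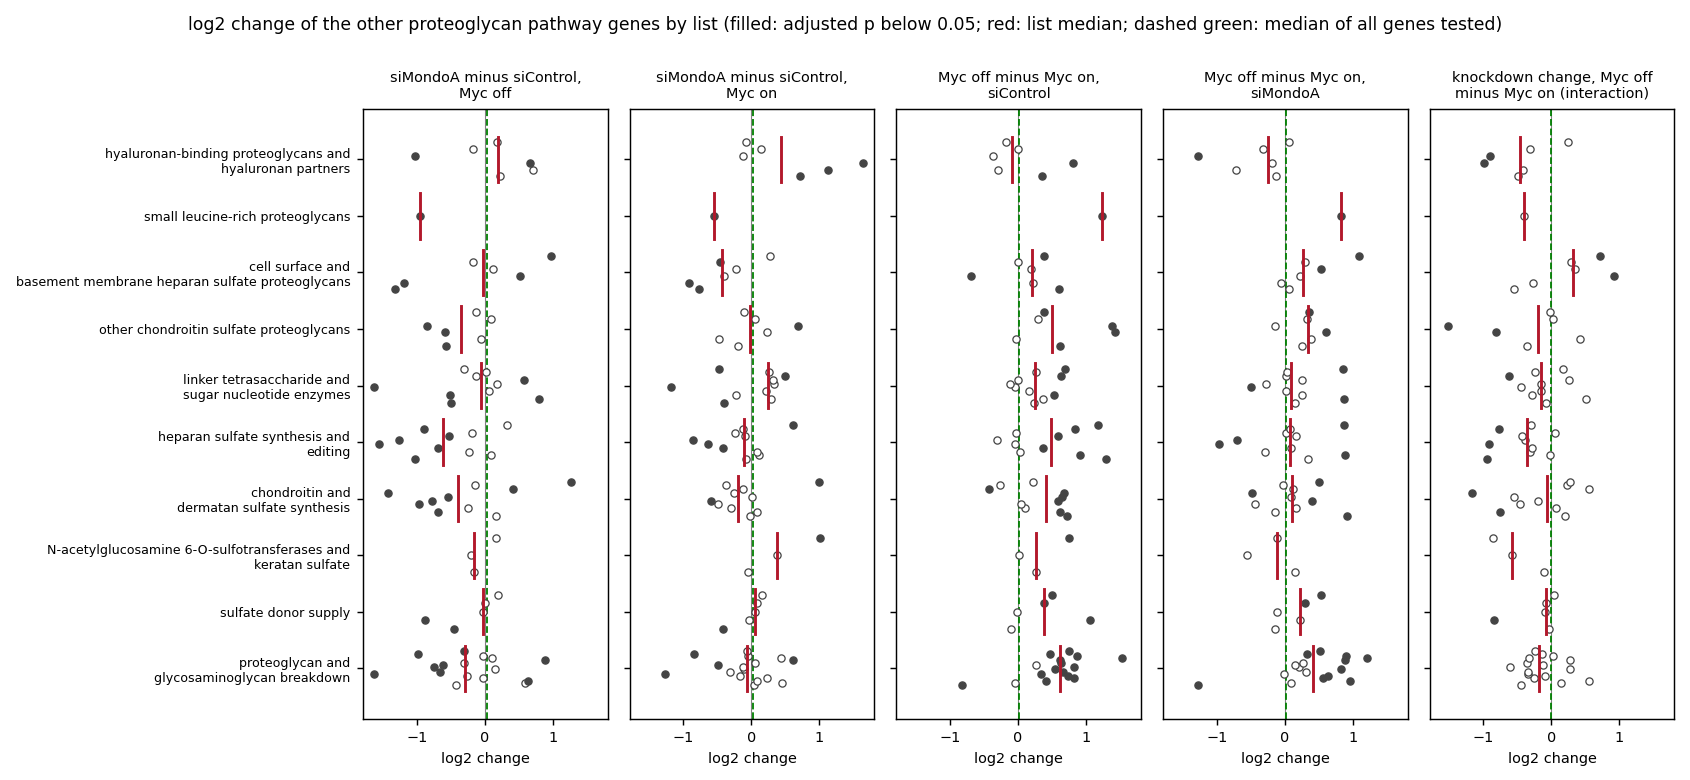
Fitted log2 change (x axis) of the 73 other pathway genes tested, by list, in the 5 comparisons; filled points passed an adjusted p of 0.05, red lines are list medians and the dashed green line is the median of all genes. In the panel for doxycycline with siControl 13 of the 16 breakdown genes are filled to the right of 0, and in the panel for knockdown with Myc off 6 of the 10 heparan sulfate genes are filled to the left.

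The list of hyaluronan partners of versican held 6 further genes tested. HAS3, a hyaluronan synthase, rose with MondoA knockdown by 1.65 ± 0.13 with Myc on (adjusted p = 3.42e-06) and by 0.66 ± 0.13 with Myc off (adjusted p = 0.0012). With Myc on its synthase relative HAS2 rose by 1.13 ± 0.28 (adjusted p = 0.0102) and CD44, the main hyaluronan receptor, by 0.71 ± 0.11 (adjusted p = 0.000842). HMMR, a hyaluronan-binding protein best known from the mitotic spindle, fell with knockdown under doxycycline, at -1.03 ± 0.15 (adjusted p = 0.000144). The counts were 1 higher and 1 lower with Myc off and 3 higher and 0 lower with Myc on. Another HAS2 probe, detected on 5 arrays, gave 0.21 with Myc on. Further CD44 probes gave 0.81 with Myc on where detected on all 12 arrays, and 0.01 where detected on 9. Of the 3 siControl arrays without doxycycline, HAS3 was detected on 1 and HAS2 on 2, so the Myc-on changes of both rest partly on readings not above background.

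LUM (lumican), the 1 further small leucine-rich proteoglycan of 10 that passed the filter, fell with knockdown, with changes of -0.95 ± 0.11 with Myc off (adjusted p = 3.32e-05) and -0.55 ± 0.11 with Myc on (adjusted p = 0.00419). Doxycycline raised it by 1.23 ± 0.11 in siControl cells and 0.83 ± 0.11 in siMondoA cells. Its log2 levels were 9.94 ± 0.14 with siMondoA and 10.89 ± 0.09 with siControl under doxycycline, and 9.11 ± 0.16 with siMondoA and 9.66 ± 0.03 with siControl without it (SD, n = 3). Under median scaling its fall with Myc on was -0.29 and no longer passed the threshold. Another LUM probe, detected on 5 arrays, gave knockdown changes of -0.91 with Myc off and -0.09 with Myc on. Its doxycycline changes were 1.17 in siControl cells and 0.36 in siMondoA cells.

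Of 6 further heparan sulfate proteoglycans, AGRN (agrin) and COL18A1 (the collagen XVIII chain), both of basement membranes, fell with knockdown in both Myc states. AGRN fell, with changes of -1.32 ± 0.12 with Myc off (adjusted p = 4.34e-06) and -0.77 ± 0.12 with Myc on (adjusted p = 0.000736). COL18A1 fell, with changes of -1.20 ± 0.12 (adjusted p = 8.25e-06) and -0.92 ± 0.12 (adjusted p = 0.000204). TGFBR3 (betaglycan), a co-receptor for TGF-beta, rose by 0.98 ± 0.12 with Myc off (adjusted p = 5.05e-05), and GPC2, a glypican of the developing nervous system, by 0.52 ± 0.15 (adjusted p = 0.0134). The counts with knockdown were 2 higher and 2 lower with Myc off, and 0 higher and 3 lower with Myc on, the third being HSPG2 (perlecan), detected on 1 siControl and 0 siMondoA arrays and called in 4 of 17 alternatives. The rise of GPC2 was not called under median scaling, at 0.25, or without replicate 1 of the siMondoA or of the siControl Myc-off group. Doxycycline changed GPC2 by -0.69 ± 0.15 (adjusted p = 0.00415) and AGRN by 0.60 ± 0.12 (adjusted p = 0.00268) in siControl cells.

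Among 6 further chondroitin sulfate proteoglycans, NRP1 (neuropilin-1, a receptor for VEGF and semaphorins) and SPOCK1 (testican-1) rose with doxycycline in siControl cells, by 1.43 ± 0.11 (adjusted p = 3.93e-06) and 1.38 ± 0.13 (adjusted p = 1.06e-05). The knockdown change of SPOCK1 was -0.85 ± 0.13 with Myc off (adjusted p = 0.000159) and 0.68 ± 0.13 with Myc on (adjusted p = 0.00199), and the difference passed the threshold at -1.53 ± 0.18 (adjusted p = 0.000377). SPOCK1 had log2 levels of 7.98 ± 0.02 in siMondoA cells and 8.82 ± 0.23 in siControl cells with Myc off, and 8.12 ± 0.11 in siMondoA cells and 7.44 ± 0.12 in siControl cells with Myc on (SD, n = 3). Knockdown lowered 3 of the 6 with Myc off and raised 1 with Myc on, and doxycycline raised 4 with siControl and 2 with siMondoA. Under median scaling knockdown raised 2 with Myc on, and doxycycline raised 0 in siMondoA cells. A further NRP1 probe detected on all 12 arrays gave 0.65 for doxycycline in siControl cells.

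Of 10 heparan sulfate synthesis and editing genes tested, 0 rose and 6 fell with knockdown under doxycycline. GLCE, the epimerase that makes iduronic acid in the chain, had a change of -1.55 ± 0.13 (adjusted p = 1.89e-06). HS2ST1, which sulfates that iduronic acid, had -1.26 ± 0.16 (adjusted p = 5.76e-05), and EXT1, a subunit of the chain-extending polymerase, had -1.02 ± 0.14 (adjusted p = 9.22e-05). With Myc on 1 rose, the surface 6-O-endosulfatase SULF2, by 0.62 ± 0.12 (adjusted p = 0.0034), and 3 fell, among them HS2ST1 at -0.86 ± 0.16 (adjusted p = 0.00229). Doxycycline raised 6 and lowered 0 in siControl cells. The largest rises there were those of EXT1 at 1.29 ± 0.14 (adjusted p = 3.78e-05), SULF2 at 1.17 ± 0.12 (adjusted p = 3.13e-05) and EXT2, the polymerase partner of EXT1, at 0.91 ± 0.14 (adjusted p = 0.000348). In siMondoA cells 2 rose and 2 fell. Under median scaling the falls with knockdown under Myc on numbered 1, and the list's median there was 0.11, against -0.11 with quantile normalization.

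The 10 chondroitin and dermatan sulfate genes tested gave 2 higher and 5 lower with knockdown under doxycycline. UST, the uronyl 2-O-sulfotransferase, rose with knockdown by 1.28 ± 0.13 with Myc off (adjusted p = 1.1e-05) and 1.00 ± 0.13 with Myc on (adjusted p = 0.00023). CHST7, which sulfates the 6 position of N-acetylgalactosamine, fell at -1.42 ± 0.12 with Myc off (adjusted p = 1.76e-06) and stood at -0.26 ± 0.12 with Myc on (adjusted p = 0.134). CHST14, the dermatan 4-O-sulfotransferase, fell, with changes of -0.78 ± 0.13 with Myc off (adjusted p = 0.000368) and -0.59 ± 0.13 with Myc on (adjusted p = 0.00565), the second of which median scaling took below the threshold at -0.35. Doxycycline raised 5 in siControl cells, with CHPF, a chondroitin polymerizing factor, at 0.72 ± 0.12 (adjusted p = 0.000947), and lowered 1, the synthase CHSY1 at -0.43 ± 0.13 (adjusted p = 0.0268), which lost its call under median scaling and without replicate 1 or 3 of the siControl Myc-off or 2 or 3 of the siControl Myc-on group. It raised 3 and lowered 1 in siMondoA cells, where median scaling gave 1 of each.

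Of the 10 genes for the linker sugars and their nucleotides, 2 rose and 3 fell with knockdown under doxycycline, and 1 rose and 3 fell without it. Median scaling gave 0 higher and 3 lower under doxycycline, and 3 higher and 1 lower without it, so the balance with Myc on turned. PXYLP1, a phosphatase that removes the phosphate from the linker xylose, fell, with changes of -1.63 ± 0.14 with Myc off (adjusted p = 2.81e-06) and -1.18 ± 0.14 with Myc on (adjusted p = 0.000121). With Myc off the PXYLP1 probe was detected on 1 of 3 siMondoA arrays, so that change rests on readings mostly not above background. XYLT2, a xylosyltransferase that starts the linker, rose with doxycycline by 0.69 ± 0.14 in siControl cells (adjusted p = 0.0022) and 0.86 ± 0.14 in siMondoA cells (adjusted p = 0.000527). In the sulfate donor list of 5 genes, PAPSS2, a PAPS synthase, had a knockdown change of -0.87 ± 0.15 with Myc off (adjusted p = 0.000538) and rose with doxycycline by 1.06 ± 0.15 in siControl cells (adjusted p = 0.000259). That list gave 0 higher and 2 lower with knockdown under doxycycline, and 3 higher and 0 lower with doxycycline in siControl cells. The list of CHST2 itself held 3 further genes tested, of which CHST4, another N-acetylglucosamine 6-O-sulfotransferase, was at least 1.62-fold higher with knockdown under Myc on (adjusted p = 0.00205), since it was not detected on the siControl arrays without doxycycline.

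The breakdown genes were mostly higher under doxycycline, with 13 of 16 rising and 1 falling in siControl cells, and 9 rising and 1 falling in siMondoA cells, where median scaling gave 6 and 1. IDUA, which removes iduronic acid from heparan and dermatan sulfate in the lysosome, rose by 1.53 ± 0.18 with siControl (adjusted p = 6.99e-05) and 1.21 ± 0.18 with siMondoA (adjusted p = 0.000404). NAGLU, a heparan sulfate glucosaminidase, rose by 0.86 ± 0.12 (adjusted p = 0.000231) and 0.89 ± 0.12 (adjusted p = 0.000204). ADAMTS1, a protease that cleaves versican, was the one that fell, with changes of -0.83 ± 0.24 with siControl (adjusted p = 0.0206) and -1.28 ± 0.24 with siMondoA (adjusted p = 0.0018). The probe of ADAMTS1 was detected on 1 of 3 siMondoA arrays under doxycycline and that of IDUA on 2 of 3 siControl arrays without it, so the changes set against those groups rest partly on readings not above background. The siControl call of ADAMTS1 was lost without replicate 1 or 2 of the siControl Myc-off group or replicate 1 of the siControl Myc-on group.

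Knockdown gave 2 higher and 6 lower among the 16 breakdown genes with Myc off, and 1 higher and 3 lower with Myc on. GUSB (beta-glucuronidase) fell, with changes of -1.63 ± 0.09 with Myc off (adjusted p = 1.05e-07) and -1.27 ± 0.09 with Myc on (adjusted p = 2.07e-06), and SGSH, a heparan N-sulfatase, fell too, with -0.98 ± 0.11 (adjusted p = 1.44e-05) and -0.85 ± 0.11 (adjusted p = 0.000155). IDS (iduronate 2-sulfatase) rose by 0.89 ± 0.10 with Myc off (adjusted p = 2.08e-05) and 0.61 ± 0.10 with Myc on (adjusted p = 0.000963). Further IDS probes, detected on 12 and 11 arrays, gave 0.67 and 0.76 with Myc off. With Myc on they gave 0.29 and 0.21, which did not pass the threshold. HPSE (heparanase) depended on the probe: the brighter gave -0.74 ± 0.20 with Myc off (adjusted p = 0.00918) and the other, also detected on all 12 arrays, 0.26 (adjusted p = 0.474).

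Genes whose log2 levels followed VCAN most closely over the 12 arrays were ACOX2, a peroxisomal acyl-CoA oxidase (Pearson r = 0.985), NET1 (0.977), SLC47A1, an efflux transporter (0.975), HLTF, a DNA repair helicase (0.971), and SH3GL3, an endophilin (0.971). ACOX2 had log2 levels of 7.17 ± 0.09 with siMondoA and 6.43 ± 0.11 with siControl under doxycycline, and 7.83 ± 0.03 with siMondoA and 7.97 ± 0.10 with siControl without it (SD, n = 3). For CHST2 they were RAB21, a small GTPase of endosomes (0.991), DCAF7, a WD-repeat scaffold (0.985), BMPR1B, a BMP receptor (0.985), MTIF3, a mitochondrial initiation factor (0.978), and CSNK1G1, a casein kinase (0.974). RAB21 had 8.63 ± 0.12 with siMondoA and 7.34 ± 0.07 with siControl under doxycycline, and 7.95 ± 0.09 with siMondoA and 7.29 ± 0.12 with siControl without it. BMPR1B was detected on 0 of 3 arrays in each siControl group, and SH3GL3 on 0 of 3 siControl arrays under doxycycline. The coefficients of both rest partly on readings not above background. All these coefficients are descriptions, since the 12 points fall into 4 groups that share arrays and normalization with the gene they were matched to.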

How the data were processed

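Total RNA of the 12 samples was hybridized to Illumina bead arrays, 1 array per sample. The authors deposited bead-summarized probe intensities on a linear scale, which by their values are neither background-corrected nor normalized. The detection score deposited for each probe and array is a fraction, and by its values it is 1 minus the detection p-value. The log2 values that the authors also deposited equal the log2 of quantile-normalized intensities without background correction, with a largest difference of 5.3e-14. They were used for that check and as the alternative without background correction. The submitters' processing notes name lumi, and its version and the step it served are not given in the sources used here.

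Intensities were corrected for background, inferred from detection p-values, and quantile-normalized with neqc (offset 16) of limma 3.58.1 in R 4.3.3. Of 47313 probes with values, 30108 had 1 gene symbol in the platform annotation, 8 several and 17197 none. A probe was kept where 3 or more of the 12 arrays detected it at p below 0.05, and the probe with the highest mean stood for a gene, which left 12178 genes. Group means were fitted over all 12 arrays with lmFit and eBayes, with adjustment by Benjamini-Hochberg over all genes and a threshold of 0.05. SE is that of the fit. Where a group did not detect a gene, the fold is a lower limit and is written "at least", set against each dim array's own reading or its dimmest detected probe, whichever is higher. The fit was checked on simulated data in which 200 of 12178 genes were changed for the knockdown with Myc off. It found 23% of the changes of 0.5 log2 and 82% of those of 1 log2, with 4 false calls. A small change that did not pass the threshold is therefore not shown to be absent. No score or set test was run over the members.

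The members and the lists were chosen with earlier results of these data known. The text names every member, up to 3 called genes of each list in each direction and comparison with the largest changes, MLXIP, MYCN and TXNIP, and the 5 genes with the highest Pearson r to VCAN and to CHST2. The alternatives left out each array, changed the normalization, the filter, the probe and the moderation, or added the replicate number. Promoters came from a RefSeq table, matched by symbol for 8 of 10 members.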

Additional observations from a re-analysis of the deposited data

Results flagged for a closer look

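Groups of 3 arrays are too small for a test of single arrays. TXNIP, used above to check the labels, had knockdown changes of -4.42 ± 0.12 with Myc off and -3.35 ± 0.12 with Myc on (SE). Its difference between the Myc states was -1.07 ± 0.16 (adjusted p = 0.00217, limma). Because MLXIP was detected on 1 array, the depth of the knockdown could not be compared between Myc states. The part of an unequal knockdown in the differences below was not tested. For the genes below, the knockdown change differed between the Myc states by the interaction term of the fit, given as the change with Myc off minus that with Myc on. Among the members, which were chosen with such values known and carry no p here, the differences were 1.39 ± 0.20 for VCAN, 1.23 ± 0.26 for CHST2 and -0.82 ± 0.22 for SDC4. The calls of VCAN and CHST2 held in 20 of 20 alternatives and that of SDC4 in 9, and the SDC4 call was lost with no filter on dim probes and without any 1 of 10 arrays. SDC4 kept it without replicate 2 of the siMondoA Myc-off or replicate 1 of the siControl Myc-off group. All alternatives re-use the arrays whose results were known when the members were named. These counts for members therefore describe only how the calls depend on the processing.

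Of the other pathway genes GPC2 differed by 0.92 ± 0.21 (adjusted p = 0.02, limma) and TGFBR3 by 0.71 ± 0.18 (adjusted p = 0.027), both with the more positive knockdown change under doxycycline. Their calls held in 16 and 14 of 20 alternatives and were lost under median scaling. Leaving out replicate 1 of the siMondoA Myc-off, replicate 1 of the siControl Myc-off or replicate 2 of the siControl Myc-on group ended the call of GPC2, whose difference ranged from 0.45 to 1.06 over all alternatives. That of TGFBR3 ended without replicate 1 or 3 of the siMondoA Myc-off, replicate 2 of the siControl Myc-off or replicate 1 of either Myc-on group, with a range of 0.38 to 0.83 over all alternatives. SPOCK1 differed by -1.53 ± 0.18 (adjusted p = 0.000377), CHST7 by -1.17 ± 0.17 (adjusted p = 0.00143) and HAS3 by -0.99 ± 0.18 (adjusted p = 0.00664). EXT1 differed by -0.95 ± 0.20 (adjusted p = 0.0124), GLCE by -0.91 ± 0.18 (adjusted p = 0.0101) and HMMR by -0.91 ± 0.21 (adjusted p = 0.0208). Those 6 calls held in 20 of 20 alternatives. A further HMMR probe gave -0.91, which did not pass the threshold (adjusted p = 0.0549, limma). NRP1 differed by -0.82 ± 0.16 (adjusted p = 0.00932), with a further probe at -0.17 (adjusted p = 0.751). PAPSS2 differed by -0.84 ± 0.22 (adjusted p = 0.0312) and UGP2 by -0.62 ± 0.16 (adjusted p = 0.0329), both in 10 of 20 alternatives. Further UGP2 probes gave -0.87, -0.56 and -0.65, none past the threshold (adjusted p = 0.0502, 0.103 and 0.0806, limma). NDST1 differed by -0.77 ± 0.21 (adjusted p = 0.0394, 9 of 20) and CHPF2 by -0.76 ± 0.22 (adjusted p = 0.0488, 8 of 20). PAPSS2 kept its call without replicate 2 of the siMondoA Myc-off or replicate 3 of the siMondoA Myc-on group, and UGP2 without replicate 2 of the siControl Myc-off or of the siMondoA Myc-on group. NDST1 kept it without replicate 3 of any group but siMondoA Myc off, and CHPF2 without replicate 2 of the siControl Myc-off or replicate 3 of the siControl Myc-on group. Without any other single array each lost it. The knockdown changes of SPOCK1 were -0.85 ± 0.13 with Myc off and 0.68 ± 0.13 with Myc on.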

How the results depend on the processing

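Of the 26 changes of members past the threshold, all 26 kept their direction in every alternative run and 19 also stayed past it in every one. The members were named with these arrays' results known and every alternative re-uses the arrays. Their counts therefore describe the processing and are no support for the changes. Of 147 such changes of other pathway genes, 146 kept their direction and 92 their call. HPSE turned with Myc off when its most variable probe was used, to 0.26, and the cause was not tested. Median scaling called 19 other pathway genes for doxycycline in siMondoA cells, against 29, and 5 members for the difference between knockdown changes, against 3. Without background correction that difference was called for 1695 genes, against 1059, and for 20 other pathway genes, against 13. Leaving out single arrays gave 686 to 1146 genes and 8 to 12 other pathway genes for it. The gene count moved by over 1.5 times without replicate 1 of the siMondoA Myc-off group, replicate 3 of the siControl Myc-off group or replicate 2 of the siControl Myc-on group, fits with fewer arrays. The pathway count was 8 without replicate 1 or 3 of the siMondoA Myc-off group, replicate 1 of the siControl Myc-off group, replicate 1 of the siMondoA Myc-on group or replicate 2 of the siControl Myc-on group. Every other total of calls, both directions together, stayed within 1.5 times its value, while counts in 1 direction moved further under median scaling, such as 5 other pathway genes higher with knockdown under Myc off, against 9, and 685 of all genes lower with knockdown under Myc on, against 1522. Numbers 1 to 3 are shared between groups, but the 12 correlations of same-numbered deviations lay between -0.05 and 0.08, 0 of them over 0.1, and with the replicate block 5240 genes were called for knockdown with Myc off (5333 without it) and 904 for the difference (1059 without it), with 8 and 3 members called in both fits. The slide as a block was not run, since the files and labels give no slide. Members near background, CHST2 in siControl cells and CSPG4 throughout, are limited by signal over background.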
